A study of Homo sapiens with 36 samples.

Results

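The ERBB receptor genes EGFR, ERBB2, ERBB3 and ERBB4 were taken as a family of 4 out of 20033 protein-coding genes of GENCODE release 44, and every peak near them in 16 deposited ChIP-seq peak lists was examined. Members of the peak set were chosen by position: 88 of 475211 peaks lay within 3 kb of any annotated start site of the 4 genes, and 76 of 72011 merged Jun-family regions lay within 200 kb of a gene start or inside a gene body. The lists came from 2 untreated human cell lines, A549, a lung adenocarcinoma line, and BEAS-2B (B2B), an immortalised non-cancerous bronchial epithelial line, each standing for its tissue as 1 line only. ChIP was directed at RNA polymerase II (pol II), H3K4me3, Med1, H3K27ac, JunB, Jun and JunD in both lines, and at CTCF and Rad21 in B2B. The 36 samples formed 18 groups of 2 replicates, and the 4 input samples in 2 of those groups were not analysed here. Replicates had been merged before peak calling, so each line had 1 list per target and no difference between lines could be tested against replicate spread.

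The ERBB receptors are receptor tyrosine kinases that bind growth factors of the EGF family, pair with one another and signal through the Ras-MAPK and PI3K pathways. ERBB2 has no known ligand of its own, ERBB3 has a weak kinase and relies on its partners, and ERBB4 is a neuregulin receptor that is best known in heart and nerve. Jun, JunB and JunD are subunits of the AP-1 transcription factor, which is known to bind TGACTCA and its reverse complement TGAGTCA. H3K4me3 marks promoters, pol II marks promoters and transcribed genes, H3K27ac and the Mediator subunit Med1 mark active promoters and enhancers, and CTCF with the cohesin subunit Rad21 marks insulators.

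The reach of the lists limits the values. The A549 H3K27ac list ended on chromosome 13, the Med1 lists of both lines ended on chromosome 15 and the A549 pol II list on chromosome 20, so ERBB2 on chromosome 17 had no Med1 value in either line and no H3K27ac value in A549. The lists held between 8563 peaks (B2B JunB) and 61225 peaks (B2B CTCF), and JunB had 28068 peaks in A549. Sequencing depth was not given by the lists. H3K4me3 near the starts of marker genes was called in both lines for 4 of 5 epithelial genes (EPCAM, CDH1, KRT8 and KRT18, not KRT19) and for 4 of 4 mesenchymal genes. It was absent in both lines from the basal airway genes KRT5, KRT14 and KRT15, while TP63 carried it in A549. Of the 4 blood and endothelial genes, PTPRC carried it in A549 and none did in B2B. Of the 4 alveolar genes, NKX2-1 and SFTPC carried it in both lines.

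EGFR (ENSG00000146648.21) spans chr7:55019017-55211628 on the plus strand of hg38 and has 12 annotated start sites. Its main start and an internal start inside the gene have entries among the RefSeq promoters (GRCh38.p14), and the 250 bases before each are shown because the lists treated them differently. Capitals mark GGGCGG or CCGCCC (either strand) in the main promoter and TGACTCA or TGAGTCA in the internal one.
EGFR main start, chr7:55018767-55019016: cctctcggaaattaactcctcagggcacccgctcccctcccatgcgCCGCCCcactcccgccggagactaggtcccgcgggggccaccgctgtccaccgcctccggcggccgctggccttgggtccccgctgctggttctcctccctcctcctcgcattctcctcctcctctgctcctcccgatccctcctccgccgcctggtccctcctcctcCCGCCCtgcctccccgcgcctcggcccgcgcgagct
EGFR internal start, chr7:55109589-55109838: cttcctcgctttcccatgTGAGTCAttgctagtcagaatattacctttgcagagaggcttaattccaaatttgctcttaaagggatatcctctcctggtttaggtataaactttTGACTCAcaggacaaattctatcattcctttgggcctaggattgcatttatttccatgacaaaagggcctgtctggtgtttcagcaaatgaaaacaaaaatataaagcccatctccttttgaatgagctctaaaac
The main promoter was 73.6% G and C, held 2 GGGCGG or CCGCCC words and no TGACTCA or TGAGTCA. The internal promoter was 38.8% G and C and held 2 TGACTCA or TGAGTCA words. Over 35116 RefSeq promoters, 4.2% of the same 250-base windows held TGACTCA or TGAGTCA and 42.6% held GGGCGG or CCGCCC. RefSeq entries were matched for 3 of the 4 genes.

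Sites around EGFR that all 3 Jun-family proteins occupied in a line are shown next, as the 101 bases centred on the Jun summit, read on the plus strand, with TGANTCA in capitals (N is any base, so the word includes TGACTCA and TGAGTCA). They are named by the distance of their middle from the gene start. The first 5 lines come from sites called in both lines, and the last pair comes from sites called in A549 alone.
EGFR intron, 46.6 kb downstream, A549 summit, chr7:55065256-55065356: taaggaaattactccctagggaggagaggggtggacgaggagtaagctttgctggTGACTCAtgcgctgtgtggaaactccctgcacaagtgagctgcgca
EGFR intron, 46.6 kb downstream, B2B summit, chr7:55065808-55065908: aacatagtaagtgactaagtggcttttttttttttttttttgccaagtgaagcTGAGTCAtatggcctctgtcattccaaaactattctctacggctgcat
EGFR intron, 114 kb downstream, A549 summit, chr7:55132985-55133085: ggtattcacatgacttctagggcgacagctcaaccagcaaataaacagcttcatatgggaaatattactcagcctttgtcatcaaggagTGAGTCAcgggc
EGFR intron, 167 kb downstream, A549 summit, chr7:55186359-55186459: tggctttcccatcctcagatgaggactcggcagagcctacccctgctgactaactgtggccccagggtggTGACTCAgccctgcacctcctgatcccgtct
EGFR 57.5 kb upstream, B2B summit, chr7:54961442-54961542: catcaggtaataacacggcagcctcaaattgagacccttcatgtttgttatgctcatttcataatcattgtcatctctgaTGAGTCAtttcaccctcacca
EGFR 188 kb upstream, A549 summit, chr7:54831125-54831225: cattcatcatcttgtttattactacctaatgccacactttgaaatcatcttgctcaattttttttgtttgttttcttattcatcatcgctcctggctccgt
EGFR 22.9 kb upstream, A549 summit, chr7:54996146-54996246: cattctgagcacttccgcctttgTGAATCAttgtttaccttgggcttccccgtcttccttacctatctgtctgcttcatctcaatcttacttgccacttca
In the first 5 windows the capitals read TGACTCA or TGAGTCA. In the last pair the capitals read TGAATCA at the site 22.9 kb upstream, and the window 188 kb upstream held none.

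The Jun-family sites with the highest Jun fold near ERBB2 and, within 200 kb, near ERBB4 are shown in the same way.
ERBB2, 15.6 kb downstream, A549 summit, chr17:39703475-39703575: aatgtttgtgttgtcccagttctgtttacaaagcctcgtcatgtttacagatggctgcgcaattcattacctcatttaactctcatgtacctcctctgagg
ERBB4, 173 kb upstream, A549 summit, chr2:212711927-212712027: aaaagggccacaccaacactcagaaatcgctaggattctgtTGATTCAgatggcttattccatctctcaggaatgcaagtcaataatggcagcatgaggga
The ERBB2 window held no TGANTCA, and the ERBB4 window held TGATTCA.

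At their promoters the 4 genes fell into different states. Counting targets whose lists reach the gene in both lines, EGFR had peaks of 4 of 7 targets in A549 and 5 of 7 in B2B, ERBB2 of 5 of 5 and 2 of 5, ERBB3 of 7 of 7 and 6 of 7, and ERBB4 of 2 of 7 and 0 of 7. In all, 18 of 26 were called in A549 and 13 of 26 in B2B, with 12 called in both. Over all protein-coding genes that each list reaches, the share with a peak within 3 kb of a start was, in A549, 69.6% for pol II, 73.7% for H3K4me3, 54.7% for Med1, 73.5% for H3K27ac, 38.2% for Jun, 31.1% for JunB and 17.8% for JunD. The same shares in B2B were 50.9% for pol II, 62.7% for H3K4me3, 61.1% for Med1, 64.9% for H3K27ac, 25.4% for Jun, 5.28% for JunB, 3.21% for JunD, 50.1% for CTCF and 67.9% for Rad21. Pol II and H3K4me3 were thus called at EGFR, ERBB2 and ERBB3 in both lines, as they were at most coding genes. The lines parted at the Jun family, where A549 had calls at ERBB2 and ERBB3 and B2B at EGFR and ERBB3, and at ERBB4, which carried 2 histone marks in A549 alone.

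**Figure D1:**
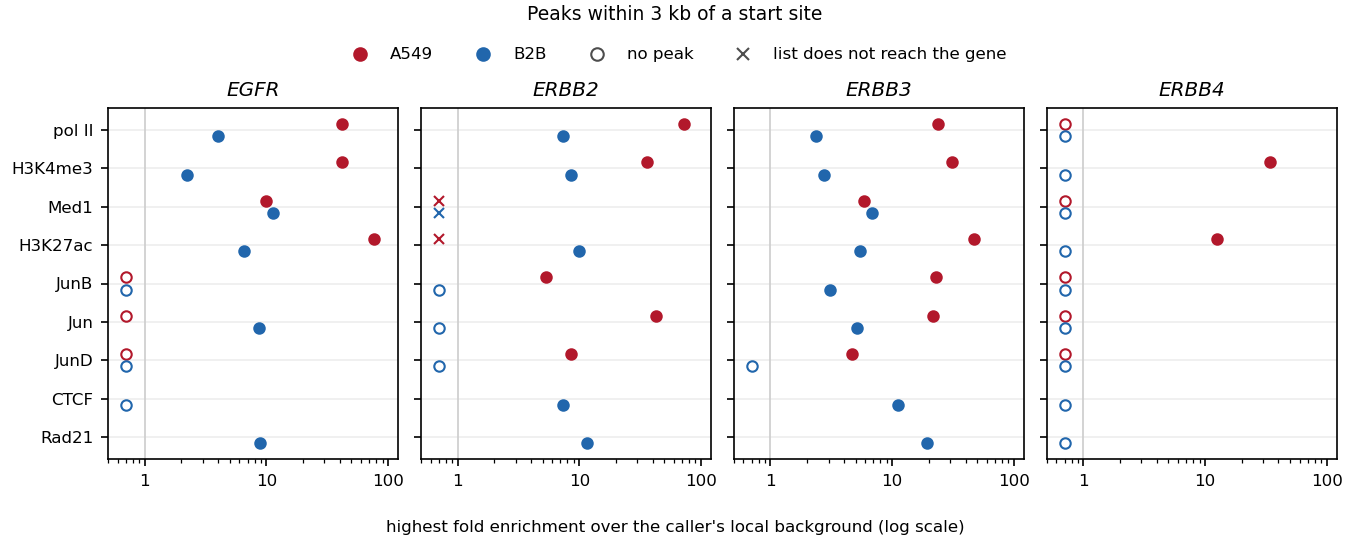
Highest fold enrichment of each target within 3 kb of a start site of the 4 genes (log scale), 1 point per list, A549 in red and B2B in blue. Open points are lists with no peak, drawn left of 1, and crosses are lists that do not reach the gene. ERBB2 has Jun at 42.9-fold in A549 and none in B2B, and ERBB4 has only H3K4me3 (34.1-fold) and H3K27ac (12.5-fold), both in A549. The A549 pol II, A549 H3K4me3 and B2B Rad21 points of ERBB2 come from peaks at its end, by the MIEN1 start.

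The height of these peaks could not be read across the lines. Fold enrichment is the pileup of reads at the summit over the caller's local background, each raised by 1, and both were recovered from the fold and the p-value of each peak. At the EGFR start, the H3K27ac summit held 238 reads over a background of 2.11 in A549 and 245 reads over 36.8 in B2B, which gave 76.9-fold and 6.5-fold. The pileups there were alike and the backgrounds were not. Over all peaks within 1 kb of a coding start, the median local background was 2.34 in A549 and 23.9 in B2B for H3K27ac, 3.51 and 36 for H3K4me3, and 2.49 and 27 for pol II. The Med1 medians were 1.99 and 2.13, those of Jun 1.56 and 2.71, those of JunB 2.68 and 3.98 and those of JunD 2.8 and 2.79. A higher background lowers the fold and can keep a weak peak from being called, and its part in the missing B2B calls at promoters was not tested.

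**Figure D2:**
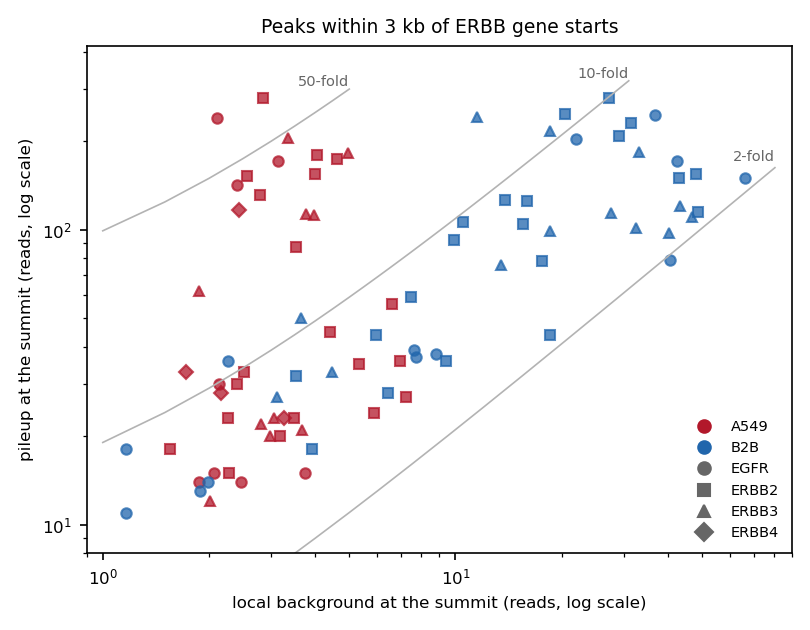
Reads at the summit against the caller's local background for each peak within 3 kb of an ERBB gene start (both log scales), A549 in red, B2B in blue, with a symbol per gene and grey lines at equal fold enrichment. A549 peaks lie at backgrounds of 1.55 to 7.26, while the B2B peaks with the most reads lie further right, at up to 66.1.

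EGFR carried pol II, H3K4me3, H3K27ac and Med1 at its main start in both lines and no Jun-family protein there. In A549, pol II stood at 42.1-fold (142 reads), H3K4me3 at 41.7-fold (171 reads) over 4457 bp, H3K27ac at 76.9-fold and Med1 at 9.88-fold. In B2B, pol II at the main start stood at 3.94-fold (171 reads), H3K4me3 at 2.24-fold (149 reads), H3K27ac at 6.5-fold and Med1 at 11.3-fold, and Rad21 was called there at 8.87-fold without CTCF. No JunB, Jun or JunD peak lay within 3 kb of the main start in either line. The 2 Jun peaks counted for B2B were at the internal start, chr7:55109467-55109675 (8.78-fold, 18 reads over 1.16) and chr7:55108062-55108218 (5.54-fold, 11 reads over 1.16). Both held TGACTCA or TGAGTCA within 50 bp of the summit, and neither overlapped pol II, H3K4me3, Med1 or H3K27ac in B2B. Among coding genes with a peak of the same target, EGFR ranked at percentile 76 for H3K4me3 in A549, at 67 for H3K27ac, at 54.7 for Med1 and at 47.6 for pol II. In B2B it ranked at percentile 10.3 for H3K4me3, at 41.7 for H3K27ac, at 69.9 for Med1 and at 34.6 for pol II.

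ERBB2 (ENSG00000141736.14, chr17:39687914-39730426, plus strand) had 21 annotated starts spread along its 42.5 kb, so all of its promoter peaks describe a short and crowded stretch that it shares with PGAP3, which starts on the other strand 44 bp away, and with MIEN1 at its end. H3K4me3 was called in both lines at the main start (31.1-fold in A549, 8.53-fold in B2B), at an internal start 12.2 kb downstream (31-fold and 3.16-fold) and at the MIEN1 end (35.7-fold and 2.34-fold). Further H3K4me3 peaks at chr17:39702849-39703404 (5.68-fold) and chr17:39703636-39703815 (3.39-fold) were called in A549 alone. Pol II was also called at these 3 places in both lines. Its highest A549 value, 73-fold, was at the MIEN1 end, where the ERBB2 and MIEN1 signals cannot be told apart. Further pol II peaks were called in A549 alone, at chr17:39702864-39703772 (7.48-fold) and, before the MIEN1 end, at 4.87-fold to 9.13-fold. B2B alone had a pol II peak at chr17:39688575-39688739 (3.86-fold). All 3 Jun-family proteins were called in A549 and none in B2B. The highest was Jun at chr17:39703364-39703710 (42.9-fold, 152 reads over 2.56), with JunD at 8.48-fold and JunB at 4.64-fold. This site overlaps an annotated untranslated exon of ERBB2, and its middle lies 343 bp from a start inside the gene. The Jun value was at percentile 96.5 of the 7652 coding genes with an A549 Jun peak near a start. No target of B2B had a peak overlapping the site. A weaker pair, JunB at 5.02-fold and Jun at 7.46-fold, lay at the start shared with PGAP3, and another site with all 3 proteins (Jun 9.68-fold) lay at the MIEN1 start.

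ERBB3 (ENSG00000065361.17, chr12:56076799-56103505, plus strand) had promoter peaks of all 7 targets in A549 and of 6 in B2B, where JunD was missing. ERBB2 also had every countable target in A549, 5 of 5, because some lists do not reach it. Of its 32 annotated starts, those near 3.25 kb from the most 5′ start held its Jun-family peaks, and a CTCF peak of B2B (11-fold) lay further in, at chr12:56085249-56085490. At chr12:56079854-56080244 A549 had JunB at 22.7-fold, Jun at 21.8-fold and JunD at 4.7-fold, and B2B had JunB at 3.06-fold and Jun at 5.14-fold with no JunD peak. The JunB summit held 112 reads over a background of 3.98 in A549 and 101 over 32.4 in B2B, and the Jun summit 62 over 1.88 and 99 over 18.5. The read pileups of JunB were close, the Jun pileup was higher in B2B, and both backgrounds were higher in B2B. Depth was unknown, and the part of the background in the difference in fold was not tested. The site overlapped an untranslated exon of ERBB3, 88 bp from a start, and TGACTCA was within 50 bp of 5 of its 5 summits. JunB in A549 was at percentile 95.2 of coding genes with such a peak, whereas H3K27ac (47.1-fold), H3K4me3 (30.7-fold) and pol II (23.8-fold) were at percentiles 34.9, 35 and 25.3. A weaker Jun peak (4.32-fold) was called in A549 alone at chr12:56079153-56079340. That peak coincided in B2B with CTCF (11.1-fold) and Rad21 (19.4-fold) at chr12:56078958-56079554.

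ERBB4 (ENSG00000178568.16, chr2:211375717-212538841, minus strand) was the only member with no pol II, Med1 or Jun-family peak near a start in either line. In A549 its start carried H3K4me3 at 34.1-fold (116 reads over 2.43) across 3093 bp and 2 H3K27ac peaks at 12.5-fold and 9.19-fold, and an internal start carried H3K4me3 at 5.63-fold. In B2B no list had a peak there, and the CTCF and Rad21 lists had none either. The A549 H3K4me3 value was at percentile 47.2 of marked genes, close to the middle, and its H3K27ac value at percentile 8.61.

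Inside the genes, EGFR held the most Jun-family peaks of the 4 and ERBB4 was nearly bare. EGFR, 193 kb long, held 11 Jun, 7 JunB and 3 JunD peaks in A549 and 19 Jun, 5 JunB and 7 JunD peaks in B2B. That is 9.86 Jun and 3.63 JunD peaks per 100 kb in B2B, against 1.92 and 0.245 over all coding gene bodies, and 5.71 Jun and 3.63 JunB peaks per 100 kb in A549, against 1.61 and 1.15. H3K27ac was also dense in EGFR, with 15 peaks in A549 and 18 in B2B (7.79 and 9.35 per 100 kb, against 2.26 and 2.48). This density was not particular to EGFR. The shorter ERBB2 and ERBB3 had 7.06 and 7.49 Jun and 7.06 and 3.74 JunB peaks per 100 kb in A549, from few peaks. In B2B, Jun was at 0 in ERBB2 and 3.74 in ERBB3, and H3K27ac at 9.41 and 7.49. ERBB4, 1163 kb long, held 3 JunB and 1 Jun peaks in A549 and 1 JunB and 3 Jun peaks in B2B, at most 0.258 per 100 kb, and no H3K27ac beyond its A549 promoter. ERBB2 held 8 pol II peaks in A549 covering 13.9% of the body and 4 in B2B covering 2.69%, and ERBB3 held 1 in each, covering 4.97% and 1.36%. Over the 4 genes and the targets reached in both lines, 107 peaks lay in gene bodies in A549 and 95 in B2B. With the lists of each target cut to equal length, the count was 87 in A549 and 87 in B2B.

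Around the gene starts, EGFR and ERBB3 lay among many Jun-family regions and ERBB2 and ERBB4 among few. Within 200 kb there were 33 regions at EGFR, 28 at ERBB3, 6 at ERBB2 and 4 at ERBB4, which stand at percentiles 98.4, 95.7, 20.8 and 12.9 of all coding genes, whose median was 12 and quartiles 7 and 18. Sharing between lines was highest at ERBB3 (11 of 28) and EGFR (12 of 33), beside 26.5% of all regions in the series, the others being 34.1% for A549 alone and 39.4% for B2B alone. A549 alone held 10 of the ERBB3 regions and B2B alone held 7, and at ERBB4 there were 1 shared, 2 A549-alone and 1 B2B-alone regions. At ERBB2 all 6 were called in A549 alone, a count that fell to 3 when the lists of each protein were cut to equal length. Of all coding genes, 4.97% had no B2B region within 200 kb, and 0.499% had none together with at least 6 in A549. The cut of 6 is the ERBB2 count itself, in lists of uncut length, so the 0.499% does not measure how unusual ERBB2 is. For EGFR the balance of the lists' lengths mattered: with the lists of each protein cut to equal length, regions called in A549 alone outnumbered those in B2B alone by 3, where the deposited lists gave 9 against 12.

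**Figure D3:**
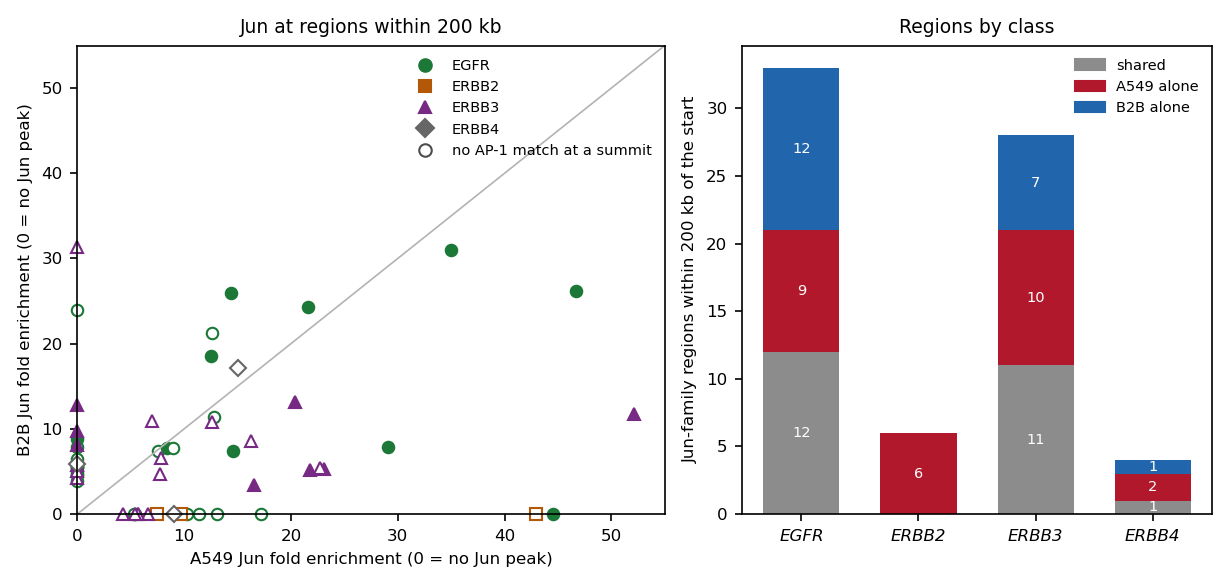
Left, Jun fold enrichment of each Jun-family region within 200 kb of a gene start in A549 against B2B, with 0 for no Jun peak, a symbol per gene, filled where TGACTCA or TGAGTCA lies near any summit of the region, and the line of equal fold. Right, number of regions that were shared, of A549 alone or of B2B alone. ERBB2 has 6 regions and all are of A549 alone, and the highest Jun value of a shared region is 52.1-fold, at ERBB3 in A549.

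The highest Jun values inside EGFR lay at sites that both lines shared. At chr7:55132544-55133501 (114 kb downstream, intron), JunB, Jun and JunD stood at 23.3-fold, 46.7-fold and 9.26-fold in A549 and at 8.7-fold, 26.2-fold and 5.32-fold in B2B. At chr7:55065009-55066277 (46.6 kb downstream, intron) they stood at 24.1-fold, 35-fold and 8.33-fold in A549 and at 12.2-fold, 31-fold and 10.5-fold in B2B. Both sites carried pol II, Med1 and H3K27ac in both lines and a CTCF peak without Rad21 in B2B. The Jun summits of the lines lay 18 bp apart at the first site and 552 bp apart at the second, where the A549 summit sat by TGACTCA and the B2B summit by a separate TGAGTCA, as in the windows printed above. Here the backgrounds were low in both lines, for Jun 2.68 and 3.69 at the first site and 2.35 and 1.97 at the second. Other shared sites had all 3 proteins in B2B and JunB with Jun in A549. They were chr7:55186180-55186625 (167 kb downstream, intron, Jun 21.6-fold and 24.3-fold), chr7:55073911-55074735 (55.3 kb downstream, intron, Jun 14.4-fold and 25.9-fold) and chr7:54961356-54961679 (57.5 kb upstream, Jun 12.5-fold and 18.5-fold). Across these 5 shared sites, 25 of the 27 strongest summits per list held TGACTCA or TGAGTCA within 50 bp.

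The EGFR sites with all 3 proteins in A549 alone were all upstream of the gene and lacked that word at their strongest summits, in 0 of 9. These 9 summits came from 3 sites. Summits of one site share much of their sequence, here and at the shared sites, so they are not independent. Allowing TGANTCA, a word chosen after the data were seen, 6 of the 9 matched, all of them at the sites 187 kb and 22.9 kb upstream. A weaker JunB peak of the site 188 kb upstream did lie near TGACTCA or TGAGTCA. The sites 188 kb and 187 kb upstream shared a stretch with pol II (30.2-fold), H3K4me3 (7.74-fold) and Med1 (9.17-fold) in A549, and none of the 9 B2B lists had a peak overlapping either. H3K27ac did not overlap them and was called beside them at 16.4-fold. The site 22.9 kb upstream (JunB 21-fold, Jun 17.2-fold, JunD 3.85-fold) overlapped pol II in A549 and nothing in B2B. The remaining 6 regions called in A549 alone had JunB, Jun or both at 3.77-fold to 11.4-fold. Of the 12 regions called in B2B alone, 11 had Jun by itself, at 3.88-fold to 8.78-fold. The other was chr7:55130715-55131091 (112 kb downstream, intron), where Jun stood at 24-fold and JunD at 5.74-fold with pol II, Med1, H3K27ac, CTCF and Rad21 in B2B and H3K27ac in A549, and no AP-1 word at either summit.

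**Figure D4:**
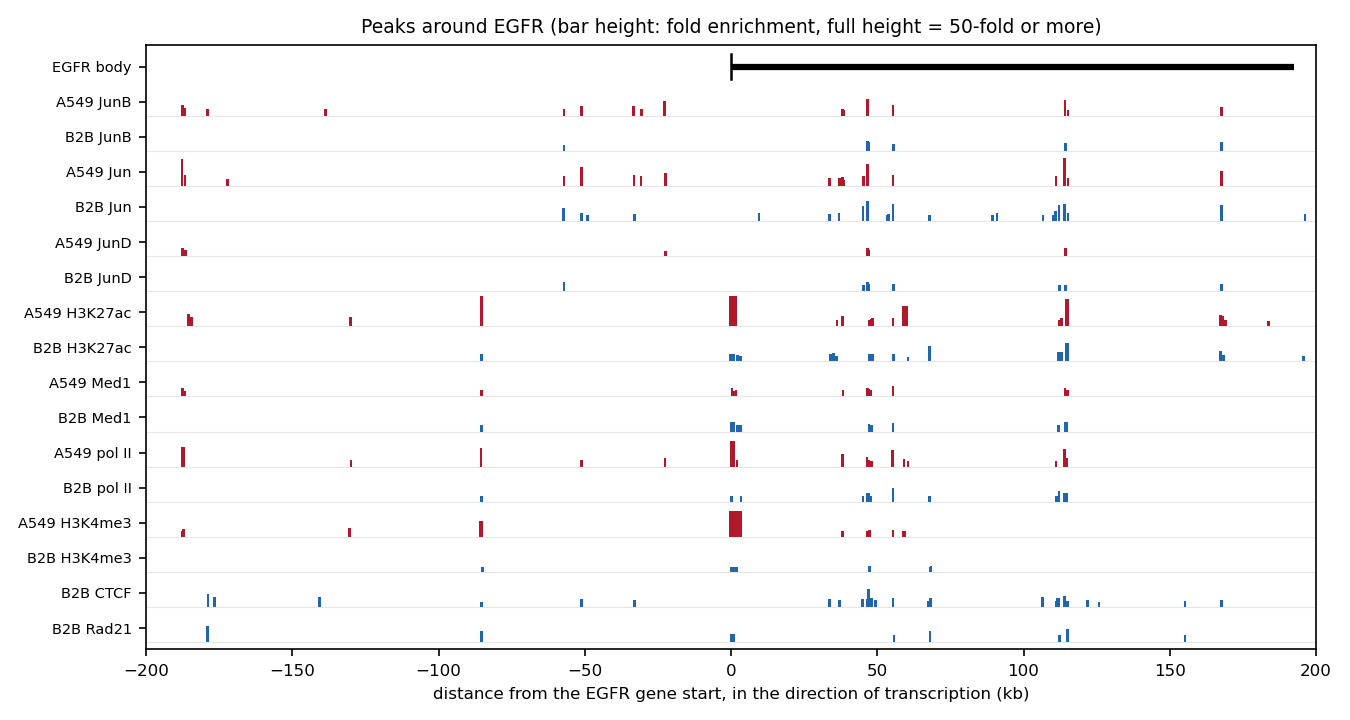
Peaks of the 16 lists within 200 kb of the EGFR gene start, by distance from it in the direction of transcription (kb), with the gene body as a black bar. Bar height is fold enrichment, with full height at 50-fold or more. Jun-family peaks of both lines line up 46.6 kb and 114 kb downstream, while those 188 kb upstream appear in A549 alone, and no Jun-family bar stands at the start.

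The ERBB3 window was gene-dense, and 17 of its 28 Jun-family regions lay within 1 kb of a start of a neighbouring gene. Besides the ERBB3 promoter, 6 regions held all 3 proteins in A549, and B2B had Jun at each of them. They lay in an intron of PYM1 (158 kb upstream), in a coding exon of PMEL (121 kb upstream), near the start of RAB5B (103 kb upstream), in an intron of ESYT1 (51.1 kb downstream) and near the starts of MYL6B (75.6 kb) and MYL6 (81.4 kb). Jun stood at 52.1-fold in A549 and 11.8-fold in B2B in PYM1, at 20.4-fold and 13.1-fold in PMEL, at 23.1-fold and 5.35-fold at RAB5B, at 16.3-fold and 8.52-fold in ESYT1, at 16.5-fold and 3.39-fold at MYL6B and at 22.7-fold and 5.39-fold at MYL6. Reads at the Jun summit over background, A549 then B2B, were 106 over 1.05 and 30 over 1.62 in PYM1. They were 44 over 1.21 and 38 over 1.97 in PMEL, and 64 over 1.81 and 55 over 9.46 at RAB5B. ESYT1 had 67 over 3.18 and 67 over 6.98, and MYL6B had 55 over 2.39 and 55 over 15.5. MYL6 had 75 over 2.35 and 68 over 11.8. Depth was unknown, so these folds are not read across the lines. JunD had no B2B region within 200 kb of the ERBB3 start, where it had 10 peaks in A549. The ESYT1 and MYL6 sites held TGACGTCA, the related CRE word, near a summit and no TGACTCA or TGAGTCA. Over the 7 sites with all 3 proteins, counting the promoter, 20 of the 30 strongest summits held TGACTCA or TGAGTCA. The highest region called in A549 alone was at the SMARCC2 start (113 kb downstream, Jun 6.64-fold), and the highest in B2B alone was chr12:56196799-56197475 between genes (120 kb downstream, Jun 31.4-fold, 94 reads over 2.02), with H3K27ac and CTCF in B2B.

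**Figure D5:**
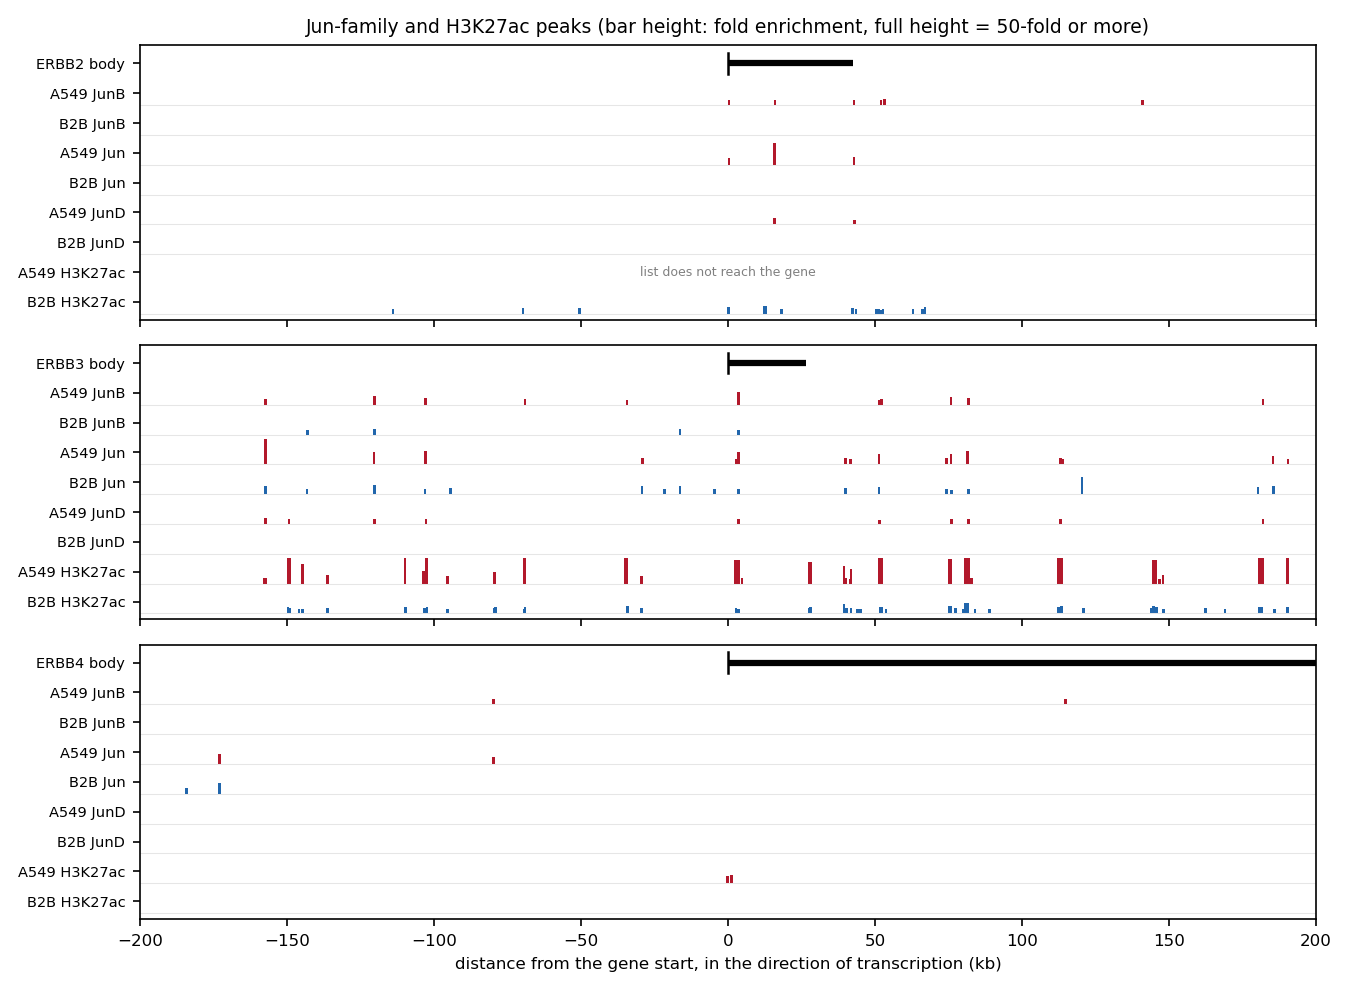
Jun-family and H3K27ac peaks within 200 kb of the starts of ERBB2, ERBB3 and ERBB4 by distance from the start (kb), A549 in red, B2B in blue, with the gene body as a black bar and full bar height at 50-fold or more. B2B has no Jun-family bar around ERBB2, and ERBB4 has 4 regions in all.

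Around ERBB2, the other Jun-family regions of A549 were JunB by itself, at 4.61-fold and 6.66-fold in GRB7 (51.7 kb and 52.9 kb downstream) and at 5.65-fold in IKZF3 (141 kb downstream), where TGACTCA or TGAGTCA lay near the second and the last of these 3 summits. H3K27ac of B2B overlapped 4 of the 6 A549 regions, pol II of B2B 2 of them and H3K4me3 of B2B 2, so 4 of the 6 places were marked in B2B without a Jun-family call. Around ERBB4 the highest Jun values were 15-fold in A549 and 17.1-fold in B2B at the shared site 173 kb upstream. In the body, the highest of A549 alone was 17.5-fold (1130 kb downstream) and the highest of B2B alone 9.24-fold (671 kb downstream). None of the ERBB4 regions within 200 kb overlapped H3K27ac or Med1 in either line.

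For the share of these summits with an AP-1 word, TGACTCA or TGAGTCA, the interval held the share of the whole list in 5 of 6 lists. The intervals are wide, with as few as 8 summits in a list, so equal frequency is not shown. In A549, 17 of 38 JunB summits around the 4 genes held TGACTCA or TGAGTCA within 50 bp (44.7%, Wilson 95% interval 30.1 to 60.3), 9 of 41 Jun summits (22%, 12 to 36.7) and 8 of 18 JunD summits (44.4%, 24.6 to 66.3). Over the whole A549 lists the shares were 46.2%, 42% and 34.2%. In B2B they were 9 of 11 for JunB (81.8%, 52.3 to 94.9), 18 of 47 for Jun (38.3%, 25.8 to 52.6) and 5 of 8 for JunD (62.5%, 30.6 to 86.3), beside 53.6%, 39.8% and 42.8%. A549 Jun was the lowest of the 6, and its interval did not reach the share of its own list. Intervals cover counting error only, and peaks of the 3 proteins at one site share their sequence.

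H3K27ac and Med1, which mark promoters as well as enhancers, accompanied the Jun-family regions of EGFR, ERBB3 and ERBB4 to different degrees. H3K27ac or Med1 of the same line overlapped 25 of 45 A549 regions within 200 kb (55.6%, Wilson 95% interval 41.2 to 69.1) and 16 of 44 B2B regions (36.4%, 23.8 to 51.1), beside 40.8% and 19.1% of all Jun-family regions on chromosomes 1 to 12. ERBB3 gave many of these, with 17 of 21 in A549 and 8 of 18 in B2B, and EGFR gave 8 of 21 and 8 of 24. In A549, H3K4me3 overlapped 16 of the 21 regions at ERBB3 and 6 of the 21 at EGFR. Many ERBB3 regions lay near starts of neighbouring genes, so these shares do not describe enhancers alone. At EGFR, B2B marks overlapped 0 of the 9 regions that B2B did not bind, and A549 marks 1 of the 12 that A549 did not bind. Most EGFR regions bound in a line also lacked its marks. At ERBB3, A549 marks overlapped 0 of the 7 regions that A549 did not bind. In B2B, all 10 regions without a B2B Jun-family peak carried H3K27ac and Med1. The share of marked regions among unbound ones was not taken over the whole series, so these small counts have no background beside them.

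CTCF and Rad21 coincided in B2B at 6 of 26 CTCF peaks within 200 kb of EGFR (23.1%), 6 of 13 at ERBB2 (46.2%), 15 of 36 at ERBB3 (41.7%) and 2 of 4 at ERBB4 (50%), beside 36.3% of the whole CTCF list. At EGFR the strongest such site, 179 kb upstream (CTCF 17.6-fold, Rad21 23.3-fold), lay between the A549 sites 188 kb and 187 kb upstream and the gene. At ERBB4 both sites lay upstream of the start, 28.9 kb and 148 kb away. The MIEN1 end of ERBB2 carried CTCF (7.08-fold) and Rad21 (11.5-fold).

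The promoter profiles of the members were set beside those of all coding genes. Over the lists that reach both genes, distances were taken between profiles of log2(1 + highest fold). The distance was 8.29 between EGFR and ERBB3, 8.46 between EGFR and ERBB2 and 4.84 between ERBB2 and ERBB3. ERBB4 lay at 9.97 from EGFR, 11.9 from ERBB2 and 12.1 from ERBB3. The median over all genes was 7.41 from EGFR, 7.93 from ERBB2, 8.66 from ERBB3 and 9.15 from ERBB4. Distances with ERBB2 and its median are over 13 lists, the other values over 16. The nearest genes to EGFR over 16 lists were EZH2 (0.954), RNF217 (1) and RFC1 (1.11), to ERBB2 over 13 lists MTF1 (1.5), ZNF143 (1.62) and RCC2 (1.63), to ERBB3 over 16 lists, of those reported, NIBAN2 (2.31) and F3 (2.64), and to ERBB4 over 16 lists CYP2J2 (0.342), RAD51AP2 (0.38) and RIC3 (0.395). Each had peaks in the same lists as its member, as did 62 of 12763 genes for EGFR, 538 of 17905 for ERBB2, 103 for ERBB3 and 143 for ERBB4. The ERBB2 profile took its A549 pol II (73-fold), A549 H3K4me3 (35.7-fold) and B2B Rad21 (11.5-fold) values from peaks at the MIEN1 end. Its distances therefore mix signals of ERBB2 and MIEN1.

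Among 28 genes of the ERBB pathway, H3K4me3 was called near a start for 26 in A549 and 24 in B2B. JunB was called at 12 in A549 and 2 in B2B, Jun at 14 in each, JunD at 6 and 2, and all 3 proteins at 5 and 1. Over all coding genes, all 3 proteins were called at 13.7% in A549 and 2.61% in B2B, and any of them at 43.8% and 25.5%. The 11 ligand genes had JunB at 4, Jun at 5 and JunD at 2 in A549, and Jun alone at 5 in B2B. Of the genes named here, NRG1 was named by a fixed rule and the others after their values were seen. AREG, which encodes the EGFR ligand amphiregulin, had Jun at 33.1-fold in A549 and 11.1-fold in B2B. NRG1, which encodes neuregulin, the ligand of ERBB3 and ERBB4, had JunB at 5.61-fold, Jun at 5.34-fold and JunD at 5.48-fold in A549 and none in B2B, and was the only gene of the list with that contrast. The sheddase gene ADAM17 had Jun at 54.8-fold in A549 and 17.7-fold in B2B, and ADAM10 had none in either. The 9 adaptor and effector genes had JunB at 6, Jun at 5 and JunD at 1 in A549 and at 2, 7 and 1 in B2B, with PTPN11 at 44.7-fold for Jun in A549 and PLCG1 at 36.1-fold in B2B. The list was chosen with earlier results of these data known. Of the 6 inhibitor genes, 3 had a Jun-family peak in A549 and 1, the feedback inhibitor ERRFI1 (Jun 12.9-fold and 8.88-fold), in B2B. These counts sit beside the shares of all coding genes given above, of which 31.1% had JunB in A549 and 5.28% in B2B.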

How the data were processed

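ChIP-seq libraries of 16 target and line combinations were used, with 2 replicates each. The authors aligned reads to hg38 with Bowtie2 2.4.4, removed duplicates with their own code, merged the replicates, scaled them by CPM with SAMtools 1.13 and called narrow peaks with MACS2 2.2.7.1, so peaks were called once per line and target on pooled reads. The control and the caller options are not given in the sources used here. The deposited fold enrichment of each peak is a ratio of summit pileup to local background, and the deposited −log10 p and −log10 q values are the caller's. Sequencing depth is unknown from these lists.

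Peaks were assigned to genes with GENCODE release 44, within 3 kb of any start site, in the gene body, or within 200 kb of the gene start. Jun-family peaks of both lines that overlapped by 1 bp were merged into regions and classed as shared or called in 1 line alone. Between lines, targets were counted only where the lists of both lines extend to the gene. Summit pileup and background were solved from the fold and the Poisson p-value of each peak, with a tolerance of 0.001 on −log10 p. Both were solved for every peak of the members and for 99.3% or more of the promoter peaks of each list. Words were searched on both strands within 50 bp of summits. Shares have Wilson 95% intervals, which cover counting error only.

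The named regions were those with all 3 Jun-family proteins in a line and the region of highest Jun fold in each class, with the 3 genes of nearest promoter profile. The members and lists were chosen with earlier results of these data known. No test between lines was made because each line had 1 list per target. The promoter assignment, region classes and pileup recovery were tested on simulated data. Python 3.11.15, NumPy 2.4.6, SciPy 1.17.1, pysam 0.24.0 and Matplotlib 3.10.9 were used. The 4 input samples were not analysed here. Some genes and sequences that the rules above would name are not reported here.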

Additional observations from a re-analysis of the deposited data

How the results depend on the processing

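Of 47 totals recomputed under other settings, 38 kept their value within the limits set, 9 moved and 0 changed direction. Of 181 values of single genes, 153 were kept, 26 moved and 2 changed direction. Only the number of A549-alone minus B2B-alone regions was scored for direction. Counts and shares could only be kept or moved, so the absence of reversals says nothing about them. The limits for shares were wide. The B2B share of summits with an AP-1 word rose from 48.5% to 59.1% with 100 bp to each side of the summit and counted as kept. The 24 shared, 27 A549-alone and 20 B2B-alone Jun-family regions within 200 kb became 15, 15 and 12 within 100 kb, and the difference between the lines of 7 became 3. With lists cut to the same number of peaks, A549-alone regions were 17 and B2B-alone regions 9. Counting from any part of the gene body, the difference was 2. Under these settings the EGFR difference turned from -3 to 3 with lists of equal length, and the ERBB4 difference from 1 to -1 when counted from the gene body. The A549 share of summits with an AP-1 word rose from 35.1% to 49.5% with TGANTCA, a setting chosen after seeing the data. The B2B share of regions with H3K27ac or Med1 was 36.4%, and 22.7% where both were required. The causes were not tested. No paired analysis was possible because the replicates had been merged before peak calling, and for the same reason no replicate could be left out. The unknown depth limits what a missing peak shows.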

Other observations

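The highest H3K27ac peak between 100 kb and 50 kb upstream of EGFR lay away from any Jun-family peak. About 85.5 kb upstream of the start, A549 had H3K27ac at 62.5-fold, pol II at 29.5-fold, H3K4me3 at 22.8-fold and Med1 at 5.18-fold, and B2B had 7.11-fold, 3.69-fold, 3.38-fold and 4.88-fold. B2B also had Rad21 at 15.3-fold there, with CTCF at 2.04-fold. The place lies less than 1 kb before an annotated processed pseudogene, a kind of gene copy whose reads can be shared with the gene it copies. Whether shared reads played a part in these peaks was not tested.

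Inside EGFR, 58.6 kb downstream of the start, A549 had an H3K27ac peak of 31.7-fold with pol II at 7.14-fold. The B2B H3K27ac list had a peak of 2.28-fold overlapping its far end, and no Jun-family region of either line lay there.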
